A study of Oryza sativa with 6 samples.

Results

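The NADPH oxidases of plants, called respiratory burst oxidase homologues (Rboh), were followed in rice roots exposed to mercury (Hg). The set consisted of 8 loci of the Rboh family, chosen by locus ID, and every array probe whose name began with one of these IDs was taken, which gave 16 probes out of the 41889 probes that name a locus on the array. All 8 loci had at least 1 probe. Of the 29689 loci with a probe, 21841 reached the signal minimum of 100 on at least 1 array in at least 1 channel, and 7 of the 8 Rboh loci, with 15 probes, were among them. The array files name the probes by locus, kind of sequence and accession, with the part of the transcript for cDNA probes. The loci are therefore given here by their IDs and without the letter names used for Rboh proteins. The IDs place 3 members on chromosome 1, 2 members on chromosome 5 and 1 member each on chromosomes 9, 11 and 12.

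Rboh proteins sit in the plasma membrane and carry electrons from NADPH in the cytosol to oxygen in the cell wall space, where superoxide forms and is converted to hydrogen peroxide. Their cytosolic end binds calcium through EF hands and is phosphorylated by calcium-dependent and receptor-linked protein kinases, as is known best from Arabidopsis. In roots the family is known for its part in root hair growth, in the lignification of the Casparian strip and in responses to pathogens and metals. Much of this control acts on the protein, whereas the arrays measured only transcripts.

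Roots of 6-day-old seedlings of cultivar TN-67 received Hg for 24 h (long-term exposure, 3 arrays) or for 1 h and 3 h, with the RNA of both times pooled (short-term exposure, 3 arrays). By the methods text the RNA was taken from root tips, while the labels say roots. Each array also held control RNA of roots kept in water, and whether the arrays of the 2 exposures shared any of this RNA is not given in the sources used here. The dose reads 25 mM in the sample labels but 25 µM in the methods, results and figure legends of the paper. The array values alone do not settle the unit. RNA of Hg-treated roots carried the dye Cy5 and control RNA the dye Cy3 on all 6 arrays, so any dye bias of a probe enters its ratio in the same direction on each of them. The labels number the arrays of an exposure as biological replicates 1 to 3, and how many seedlings each pool held is not given in the sources used here.

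Of 45151 spots on an array, 43734 belonged to probes and the rest to controls. Spots well above background in the Hg channel numbered 33928 to 34927 on the long-term arrays and 29106 to 34215 on the short-term arrays, and in the control channel 33840 to 34265 on the long-term arrays and 28674 to 33846 on the short-term arrays. Log2 ratios of 2 arrays correlated across genes at r = 0.885 to 0.929 within the long-term exposure and at r = 0.911 to 0.919 within the short-term exposure, against 0.375 to 0.500 between exposures. All long-term arrays lay on a slide of their own, so slide and exposure cannot be told apart. The root silicon channel gene OsNIP2;1 was well above background in both channels on 6 of 6 arrays. With 3 arrays per exposure, the number of arrays limits the precision of all values below.

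The mean log2 ratio of Hg over control was tested against 0 for each exposure, and the long-term ratio against the short-term ratio, with limma across all genes and Benjamini-Hochberg adjustment. A gene was called when its adjusted p was under 0.05 and its change at least 2-fold, and a gene with several probes was represented by its brightest one. After long-term exposure, 0 of the 7 tested Rboh genes were called, while 15% of all genes tested were, 9.02% up and 6.02% down. At an unadjusted limma p under 0.05 there were 4 of 7, where 67.8% of all genes passed. The per-gene test named in the methods also called 0, where it called 7.89% of all genes. After short-term exposure 1 of the 7 was called, or 14.3%, against 19.7% of all genes, 11.6% up and 8.1% down. The difference between exposures was also called for 1 of the 7, against 19.4% of all genes, of which the lower ratios after long-term exposure made up 10.1%. These shares are close to or below those of all genes. The single gene behind both calls was Os11g0537400, upregulated by 5.53-fold after short-term exposure and lower by 3.93-fold in its ratio after long-term than after short-term exposure.

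By the adjusted p alone, without regard to size, 1 Rboh gene was higher and 3 were lower in Hg-treated than in control roots after long-term exposure, where 63.7% of all genes passed, 28.6% higher and 35.2% lower. After short-term exposure 3 were higher and 2 lower, where 68.6% of all genes passed, 27.6% higher and 40.9% lower. Some of these passes were lost in other limma settings. With each array centred on its median ratio, the lower genes after short-term exposure had adjusted p of 0.052 (Os01g0734200) and 0.0577 (Os09g0438000). With the replicate number as a block, Os01g0360200 (0.0855) and Os09g0438000 (0.109) failed after short-term exposure. Normexp background correction also lost Os09g0438000 there (0.143). After long-term exposure Os11g0537400 failed with the slide as a block (0.0554) and without the signal filter (0.0742). Os09g0438000 failed there with the median of its probes (0.186). By the per-gene test named in the methods, all short-term passes were lost (adjusted p 0.0512 to 0.197). After long-term exposure only Os09g0438000 passed that test (0.0452). The long-term ratio was lower than the short-term ratio in 2 genes by the adjusted p alone, with 50.1% of all genes passing and 23.9% doing so in this direction. The median log2 ratio of the 7 genes was -0.35 after long-term exposure and 0.23 after short-term exposure, and that of all genes was -0.06 after long-term and -0.13 after short-term exposure. The median size of the change, regardless of sign, was 0.45 for Rboh genes and 0.41 for all genes after long-term exposure, and 0.36 for Rboh genes and 0.47 for all genes after short-term exposure. The ratio after long-term exposure was the lower one in 6 of the 7 Rboh genes. Only in Os11g0537400 and Os05g0528000 did the 95% interval of this difference exclude 0. The median difference, long-term minus short-term, was -0.34 for Rboh genes and 0.04 for all genes. The share of all genes with a lower long-term ratio, whether called or not, was not counted.

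**Figure D1:**
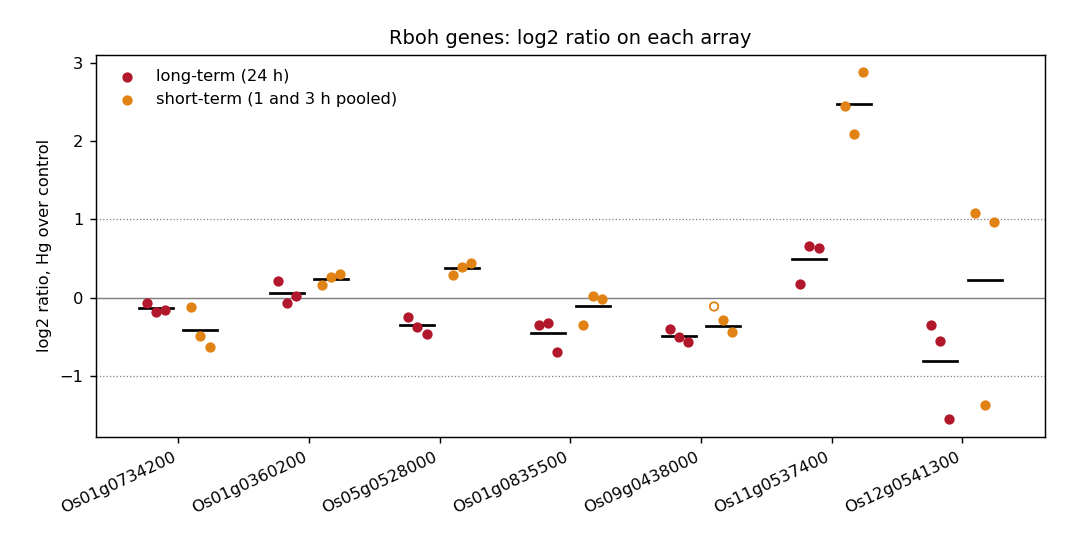
Log2 ratio of Hg over control on each array (y axis) for the 7 tested Rboh genes (x axis), by the brightest probe of each gene, with long-term arrays in red and short-term arrays in orange. Bars are means over the arrays, the open circle is a spot left out as an outlier, and dotted lines mark a 2-fold change, which the 3 short-term points of Os11g0537400 exceed at 2.44, 2.09 and 2.88.

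Os11g0537400 has a single probe, AK063113, which the array annotation places in a UTR. A supplementary table of the study describes this locus as a non-protein coding transcript, so its membership in a family of enzymes rests on the list of loci and not on that description. The probe was well above background in both channels on all 6 arrays. Its processed signals in Hg-treated roots after long-term exposure were 492.7, 541.3 and 507.9, against 434.5, 341.5 and 327.3 in the control roots on the same arrays. The Hg signal was the higher one on each array, and the groups did not overlap. After short-term exposure its signals were 437.4, 595.8 and 916.1 in Hg-treated roots, against 80.67, 140.2 and 124.6 in control roots, a gap several times wider.

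In log2 ratios this was 0.18, 0.66 and 0.63 after long-term exposure, with a mean of 0.49 ± 0.27 (SD, n = 3), a 1.41-fold change that passed the adjusted p (limma, 0.037) but not the fold threshold. After short-term exposure the ratios were 2.44, 2.09 and 2.88, with a mean of 2.47 ± 0.40 (SD, n = 3; limma adjusted p = 7.82e-05; 95% interval 2.07 to 2.87). The short-term call was lost with the per-gene test named in the methods (adjusted p = 0.0512), which called 6.68% of all genes, and was kept when any single array was left out. The ratio after long-term exposure was lower than that after short-term exposure by a log2 difference of -1.97 (95% interval -2.54 to -1.41; limma adjusted p = 0.00117). Because RNA came from many cells of the root at once, more cells that express a gene and more RNA per cell cannot be told apart, here and for the genes below.

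The signal of Os11g0537400 was also set against the median signal of its own array and channel, on the log2 scale. In Hg-treated roots it lay above that median by 0.55, 0.40 and 0.44 after long-term exposure and by 0.95, 0.95 and 2.14 after short-term exposure. In control roots the values were 0.37, -0.25 and -0.18 on the long-term arrays and -1.45, -1.10 and -0.70 on the short-term arrays. Relative to the short-term arrays, the Hg signal on the long-term arrays was lower and the control signal higher. On this scale the values of the 2 exposures did not overlap in either channel, whereas the processed Hg signals given above did overlap. How many of all genes show such gaps between the exposures was not counted. The slides differed with the exposures here, as stated above.

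**Figure D2:**
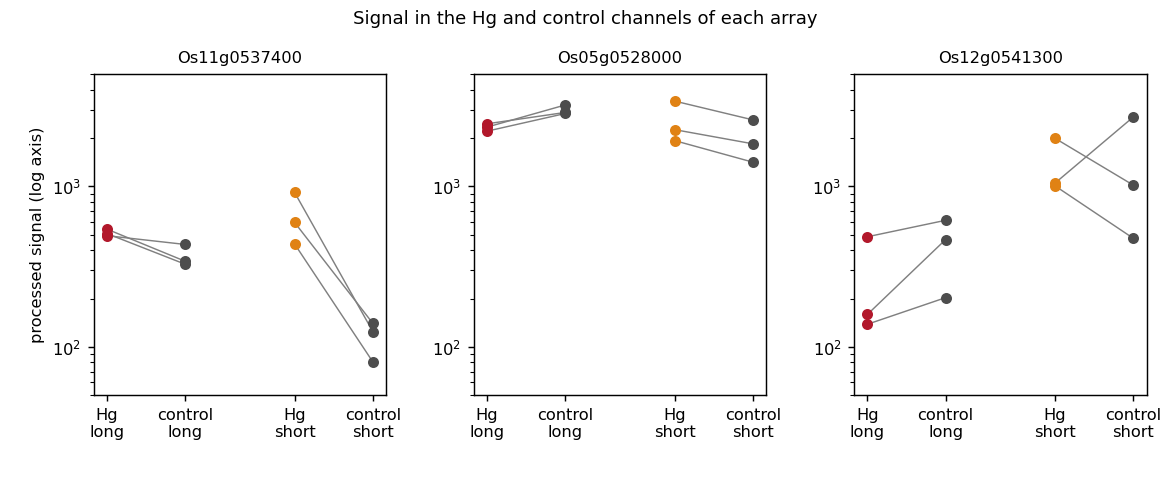
Processed signal (y axis, log scale, arbitrary units) in Hg-treated roots (red, long-term, and orange, short-term) and in the control roots of the same array (grey, joined by a line) for 3 Rboh genes. For Os11g0537400 the control signal of 327.3 to 434.5 on the long-term arrays lies above that of 80.67 to 140.2 on the short-term arrays, for Os05g0528000 the slope of the lines turns over between exposures, and for Os12g0541300 the lines of the short-term arrays cross.

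Os05g0528000, with the single probe AK120905, had ratios of opposite sign in the 2 exposures. Its signals were 2452, 2206 and 2339 in Hg-treated roots after long-term exposure, against 2886, 2843 and 3213 in control roots. After short-term exposure they were 2253, 3393 and 1925 in Hg-treated roots, against 1839, 2592 and 1413 in control roots, where the ranges overlapped although Hg was higher on each array. The log2 ratios were -0.24, -0.37 and -0.46 after long-term exposure (mean -0.35 ± 0.11, SD, n = 3; limma adjusted p = 0.006) and 0.29, 0.39 and 0.45 after short-term exposure (mean 0.38 ± 0.08, SD, n = 3; limma adjusted p = 0.00401). All long-term ratios were below 0 and all short-term ratios above it. The difference of -0.73 had a 95% interval of -0.98 to -0.48 (limma adjusted p = 0.00211), and with 1.66-fold it stayed under the fold threshold.

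**Figure D3:**
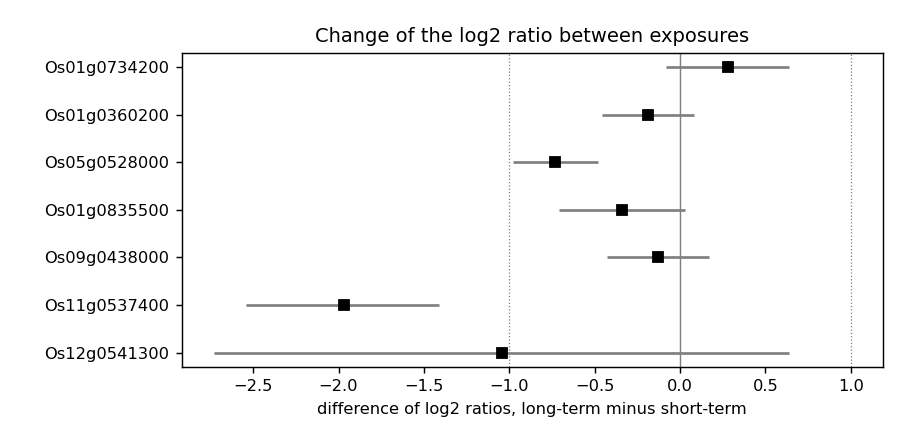
Difference of the mean log2 ratios, long-term minus short-term (x axis), for each tested Rboh gene (y axis), with the 95% interval from limma and dotted lines at a 2-fold difference. The intervals of Os11g0537400 (-2.54 to -1.41) and Os05g0528000 (-0.98 to -0.48) exclude 0, and that of Os12g0541300 (-2.73 to 0.64) is the widest of the 7.

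Os09g0438000 has 2 probes, and they disagreed. The brighter one, AK120739, gave signals of 2366, 3082 and 2544 in Hg-treated roots after long-term exposure, against 3117, 4374 and 3744 in control roots. Its log2 ratios were -0.40, -0.50 and -0.56 (mean -0.49 ± 0.08, SD, n = 3; limma adjusted p = 0.00309), all below 0. After short-term exposure the ratios were -0.28 and -0.44 on the arrays of replicates 2 and 3 (mean -0.36 ± 0.12, SD, n = 2; limma adjusted p = 0.0169), and the spot of replicate 1, at -0.11, was dropped from the fit as an outlier spot. By this probe the exposures differed by -0.13 (95% interval -0.43 to 0.17; limma adjusted p = 0.416).

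The dimmer probe of the same locus, AK109935, gave short-term signals of 590.5, 519.4 and 281.2 in Hg-treated roots, against 267.4, 293.7 and 172.6 in control roots. Its ratios were 0.06, -0.20 and -0.30 after long-term exposure and 1.14, 0.82 and 0.70 after short-term exposure. In a fit with every probe as its own feature, its short-term mean of 0.89 ± 0.23 (SD, n = 3) had a limma adjusted p of 0.000621 and stayed under 2-fold, at 1.85-fold, and its difference between exposures, -1.04, was called (limma adjusted p = 0.0025, where 19.3% of all probes were called). The probes therefore pointed in opposite directions after short-term exposure, on every array where both were measured. Both lie in coding sequence and 3′ UTR by the array annotation, and whether they detect different transcripts of the locus was not tested. The count of lower genes after short-term exposure given above holds Os09g0438000 by its brighter probe only, and the locus has no settled short-term direction.

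Os01g0734200 is covered by 3 probes. The brightest, X93301, gave 2832, 3205 and 2958 in Hg-treated roots after long-term exposure, against 2946, 3631 and 3311 in control roots. After short-term exposure it gave 4892, 2404 and 1688 in Hg-treated roots, against 5320, 3379 and 2605 in control roots, and control was higher on all 6 arrays although the ranges overlapped. The mean log2 ratio was -0.13 ± 0.07 after long-term exposure (SD, n = 3; limma adjusted p = 0.298) and -0.41 ± 0.26 after short-term exposure (SD, n = 3; limma adjusted p = 0.0121). The second probe, AK103747, had nearly the same values (-0.15 after long-term and -0.44 after short-term exposure), whereas the third, AF015302, was at -0.06 in both exposures (limma adjusted p = 0.516 after long-term and 0.491 after short-term exposure). The difference between exposures was 0.28 by the brightest probe (95% interval -0.08 to 0.64; limma adjusted p = 0.159). Of the 7 genes, Os01g0734200 was the one in which the long-term ratio was higher than the short-term ratio.

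Os01g0360200 has 4 probes, more than any other member. Its brightest probe, AY603975, gave 2905, 2721 and 2753 in Hg-treated roots after long-term exposure, against 2504, 2857 and 2701 in control roots, and the groups overlapped. After short-term exposure the signals were 2856, 3057 and 1771 in Hg-treated roots, against 2559, 2546 and 1426 in control roots, with Hg higher on each array. The mean log2 ratio was 0.06 ± 0.14 after long-term exposure (SD, n = 3; limma adjusted p = 0.548) and 0.24 ± 0.08 after short-term exposure (SD, n = 3; limma adjusted p = 0.03). All 4 probes were positive after short-term exposure, at 0.24, 0.17, 0.41 and 0.56 in order of falling brightness, and 3 of them passed the adjusted p in the fit of single probes (0.0291, 0.0884, 0.00492 and 0.000875). The difference between exposures was -0.19 by the brightest probe in the same fit (95% interval -0.45 to 0.08; limma adjusted p = 0.198), while the dimmer probes AK121916 (-0.46, limma adjusted p = 0.0182) and AK065117 (-0.36, limma adjusted p = 0.0288) passed the adjusted p, both under 2-fold.

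Os01g0835500 has 3 probes. The brightest, AK066013, gave 1093, 1317 and 1077 in Hg-treated roots after long-term exposure, against 1385, 1642 and 1735 in control roots. The log2 ratios were -0.34, -0.32 and -0.69 (mean -0.45 ± 0.21, SD, n = 3; limma adjusted p = 0.0116), and the other probes were also below 0, with means of -0.29 and -0.33. After short-term exposure its ratios were -0.34, 0.02 and -0.01 (mean -0.11 ± 0.20, SD, n = 3; limma adjusted p = 0.402), and the dimmer probes were at 0.13 and 0.15. The brightest probe was at 0.05 after normexp background correction and at 0.02 with each array centred on its median ratio, so the gene had no settled short-term direction. The difference was -0.34 by the brightest probe (95% interval -0.71 to 0.03; limma adjusted p = 0.112), and -0.41 and -0.48 by AK100241 and AK068400 (limma adjusted p = 0.0451 and 0.0172).

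**Figure D4:**
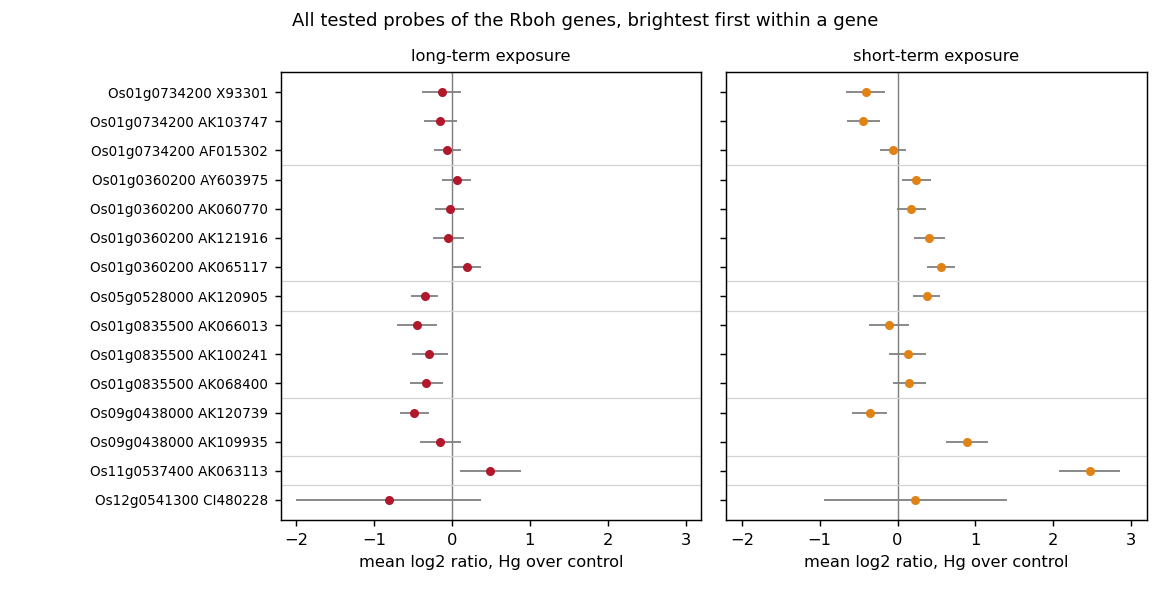
Mean log2 ratio of Hg over control (x axis) with its 95% interval for all 15 tested probes of the Rboh genes (y axis), after long-term exposure (left) and short-term exposure (right), with the brightest probe on top within each gene. The second probe of Os09g0438000 stands at 0.89 after short-term exposure while the first stands at -0.36, and the 4 probes of Os01g0360200 spread from 0.17 to 0.56.

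In each of the 4 members with several probes, the dimmest probe had a higher ratio than the brightest in both exposures and on 6 of 6 arrays. The gap between them ranged over the arrays from 0.01 to 0.58 in log2 ratio for Os01g0734200, from 0.12 to 0.47 for Os01g0360200, from 0.07 to 0.39 for Os01g0835500 and from 0.26 to 1.25 for Os09g0438000, where the widest gap involves the outlier spot. Among the 5763 genes with several probes on the whole array, the dimmest probe was the higher one in 41.1% after long-term exposure and in 55.1% after short-term exposure, with median gaps of -0.03 after long-term and 0.02 after short-term exposure. The order held in all 4 members after another background correction (normexp) as well. The 4 genes were not tested against the others.

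Os12g0541300 varied most among arrays. Its single probe, CI480228, comes from an expressed sequence tag. Signals in Hg-treated roots were 485.1, 138.3 and 159.2 after long-term exposure, against 614.3, 202.6 and 466 in control roots, and 1006, 1048 and 1990 after short-term exposure, against 474.4, 2703 and 1017 in control roots. The control signal alone spanned 474.4 to 2703 on the short-term arrays. The log2 ratios were -0.34, -0.55 and -1.55 after long-term exposure (mean -0.81 ± 0.65, SD, n = 3; limma adjusted p = 0.19) and 1.08, -1.37 and 0.97 after short-term exposure (mean 0.23 ± 1.38, SD, n = 3; limma adjusted p = 0.699). Short-term replicate 2 ran against the other two. Without that array the short-term mean was 1.03 and was called (limma adjusted p = 0.0276), as was the difference between exposures, at -1.84 (limma adjusted p = 0.0143), so 1 array decides whether a second Rboh gene is called.

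Os05g0465800 was not measurable. Its probe, AK072353, was not well above background in either channel on any of the 6 arrays. The signals were 14.6, 5.08 and 7.19 in Hg-treated roots after long-term exposure, against 5.39, 13.2 and 15.2 in control roots, and 6.84, 14.6 and 9.88 in Hg-treated roots after short-term exposure, against 6.00, 15.3 and 10.1 in control roots. No ratio is given for it. This probe shows a signal below the limit of detection on these arrays and does not show that the gene is silent in roots.

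To show which transcripts ran closest to Os11g0537400, the 4012 tested genes with a name or description in the supplementary tables were ordered by the distance between their log2 ratios over the 6 arrays. The nearest was Os06g0356800, described as a class III chitinase homologue (distance 0.32), with ratios of 0.02, 0.73 and 0.51 after long-term exposure and 2.66, 2.09 and 2.80 after short-term exposure. The next was Os05g0552800, a conserved hypothetical protein (distance 0.37), with ratios of 0.11, 0.78 and 0.51 after long-term exposure and 2.60, 2.36 and 2.86 after short-term exposure. These genes were picked for this likeness over the same 6 arrays, so it is a description.

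Families whose proteins act on Rboh enzymes or in the same calcium signals were then counted in the same fit. Calcium-dependent protein kinases (CDPK) phosphorylate the cytosolic end of Rboh proteins in Arabidopsis and potato. Calcineurin B-like calcium sensors (CBL) recruit and activate their partner kinases (CIPK), and such a pair acts on an Rboh protein in Arabidopsis. Calmodulin and calmodulin-like proteins (CaM and CML) sense calcium, and receptor-like cytoplasmic kinases of subfamily VII (RLCK-VII) link immune receptors to Rboh proteins in Arabidopsis. Across the 5 lists, 134 of 158 genes were tested. After long-term exposure 13 were called up and 7 down (14.9%, against 15% of all genes). After short-term exposure 28 were called up and 10 down (28.4%, against 19.7% of all genes). The short-term split was 24 up and 1 down after normexp background correction, where all 21814 genes gave 2089 up and 442 down. With each array centred on its median ratio it was 33 up and 5 down, where all genes gave 2910 up and 1289 down. The long-term ratio was called lower than the short-term ratio in 26 of these genes and higher in 13. Of all genes, 19.4% had a called difference, with 10.1% lower. No list was tested against all genes. Supplementary tables of the study give these lists by family, and each list was taken whole, although the families were picked with results of these data known.

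The shares called differed among the families. Of 44 tested RLCK-VII genes, 5 were called up and 1 down after long-term exposure (13.6%), and 13 up and 3 down after short-term exposure (36.4%), with median log2 ratios of 0.16 after long-term and 0.56 after short-term exposure. Of 30 calmodulin and CML genes, 5 were up and 2 down after long-term exposure (23.3%), and 10 up and 3 down after short-term exposure (43.3%). Their medians were -0.15 after long-term and 0.33 after short-term exposure. Between exposures, 9 RLCK-VII genes were called lower after long-term exposure and 3 higher (27.3%), and 10 CML genes lower and 4 higher (46.7%), against 19.4% of all genes, with 10.1% lower.

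Of 23 tested CDPK genes, 0 were up and 1 was down after long-term exposure (4.35%), while 4 were up and 1 was down after short-term exposure (21.7%). Of 28 CIPK genes, 3 were up and 3 down after long-term exposure (21.4%), and 1 up and 3 down after short-term exposure (14.3%). None of the 9 CBL genes was called against 0 in either exposure, and 1 had a called difference between exposures, a higher ratio after long-term exposure. The counts for all genes, 15% after long-term and 19.7% after short-term exposure, stand beside these shares without a test of any list.

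The genes of these families with the largest calls are given next. After normexp background correction, the calls down over all lists were 1 after short-term exposure, in place of 10. After long-term exposure they were 4 in place of 7. At most 1 of the genes named here and in the next paragraph as downregulated after short-term exposure thus kept its call. After long-term exposure, OsCPK6 was downregulated, with a log2 ratio of -1.85 ± 0.19 and a limma adjusted p of 8.39e-05, and after short-term exposure OsCPK4 (1.79 ± 0.38) and OsCPK20 (1.66 ± 0.30) were upregulated and OsCPK30 (-1.11 ± 0.11) was downregulated, with SDs over 3 arrays here and below. Among CIPK genes, OsCIPK04 (1.59 ± 0.16) and OsCIPK15 (1.22 ± 0.54) were upregulated and OsCIPK17 (-1.33 ± 0.09) was downregulated after long-term exposure, and OsCIPK25 (-1.47 ± 0.29) was downregulated after short-term exposure. OsCIPK07 was upregulated after short-term exposure (3.07 ± 0.51), with its control signal well above background on 1 of 3 arrays. OsCIPK05 was downregulated at -1.64 ± 0.52 after long-term and -1.18 ± 0.69 after short-term exposure, but its Hg signal was well above background on only 1 of 3 arrays in each exposure.

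In the calmodulin group, OsCML29 (3.45 ± 0.90) and OsCML24 (2.77 ± 0.60) were upregulated after long-term exposure, each with a control signal well above background on 2 of 3 arrays, and OsCML1 (-1.37 ± 0.28) and OsCML11 (-1.01 ± 0.11) were downregulated. After short-term exposure OsCML31 was upregulated at 3.82 ± 0.39 (limma adjusted p = 6.96e-05), and OsCML17 (-2.48 ± 0.09) and OsCML30 (-1.21 ± 0.10) were downregulated. The control signal of OsCML26 was not well above background on any short-term array, and its Hg signal was at least 4.76-fold higher than the control. This bound was not tested, and the limma adjusted p of 3.38e-05 belongs to the log2 ratio over that low control signal. Among RLCK-VII genes, Os03g0407900 was upregulated in both exposures, at 1.89 ± 0.35 after long-term and 2.30 ± 0.43 after short-term exposure. After long-term exposure Os03g0159100 (2.50 ± 0.29) was upregulated and Os05g0463000 (-2.21 ± 0.26) downregulated, and after short-term exposure Os07g0686800 (2.74 ± 0.67, control well above background on 1 of 3 arrays) was upregulated and Os03g0179400 (-1.35 ± 0.50) and Os12g0121100 (-1.09 ± 0.21) were downregulated. Os03g0179400, named for its short-term call, was called up after long-term exposure, at 1.26 ± 0.63 (limma adjusted p = 0.00665). Its difference between exposures was called at 2.60 (limma adjusted p = 0.00226).

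**Figure D5:**
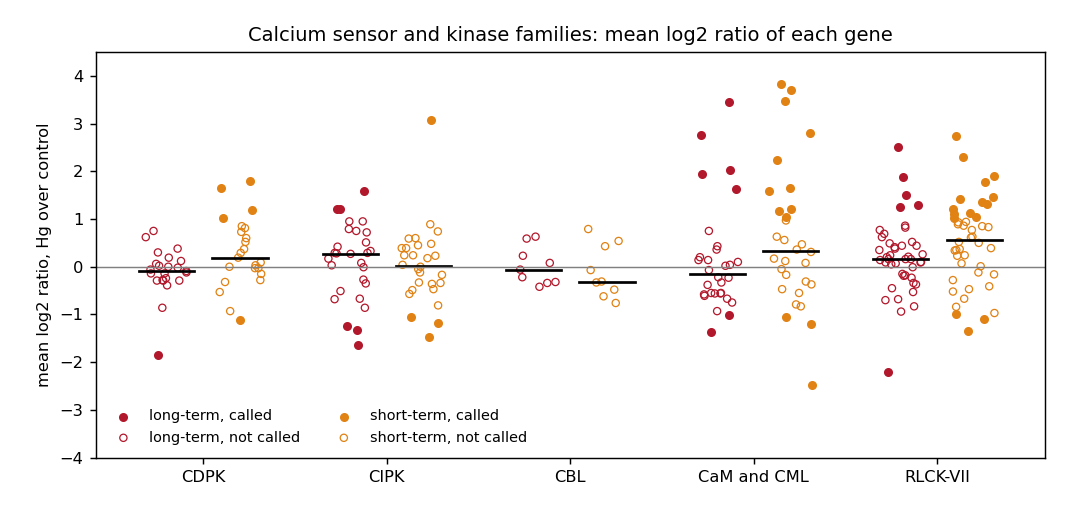
Mean log2 ratio of Hg over control (y axis) of each tested gene in 5 families (x axis), after long-term exposure (red, left in each pair) and short-term exposure (orange, right), with filled points for called genes and a bar at the median. The short-term median is 0.56 for RLCK-VII and 0.33 for CaM and CML, against long-term medians of 0.16 and -0.15, and both CBL columns hold open points only.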

How the data were processed

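The 6 arrays were Agilent 4×44K arrays, 3 per exposure, each with Hg RNA (Cy5) and control RNA (Cy3). Per the file headers, the authors processed the scans with Feature Extraction 10.7.1.1 (background subtraction, dye normalization) and deposited a log10 ratio of Cy5 over Cy3, processed intensities of both channels, and flags. The log10 ratios were multiplied by 3.32 to give log2 values. The authors also deposited a log2 value table, used as an alternative. Control and outlier spots were left out, and a probe had to reach 100 in at least 1 channel of at least 1 array. The log2 ratios were fitted with limma 3.58.1 in R 4.3.3 over all 6 arrays (residual df 4), with p adjusted over 21840 genes for long-term, 21814 for short-term exposure and 21813 for the difference. The fit was also run on simulated ratios with independent noise. These held no slide, dye or background effect, so that run says nothing about such effects on these arrays. The limma p-values rest on the spread among arrays within exposures, pooled over both exposures and drawn toward the spread of all genes. They do not rest on the SD over 3 arrays alone.

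Of the arrays' 16 cDNA names for these loci, 0 matched the RefSeq gene table, nor did any of the 8 loci. Mean signals are not among the columns read, so the normexp alternative used median signals. The bound given for OsCML26 sets the mean Hg signal against, on each array, the higher of the probe's own control signal and the lowest control signal well above background, after Aquantile scaling, and without swapped dyes it is open to dye bias. All 8 loci and their probes are named, and of each family at most the 2 largest calls in each direction and exposure. Members, lists and tests were chosen with earlier results of these data known. The alternatives covered the background correction, centring, filters, the probe of a gene, the slide or replicate as a block, the methods' t-test and leaving out each array.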

Additional observations from a re-analysis of the deposited data

Results flagged for a closer look

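The log2 ratio of Os11g0537400 differed between exposures by -1.97, long-term minus short-term, by a limma test of the difference (adjusted p = 0.00117). The ratios were 0.18, 0.66 and 0.63 on the long-term arrays and 2.44, 2.09 and 2.88 on the short-term arrays. Over 15 alternatives the difference ranged from -2.03 to -1.49 and was called in 15 of them.

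The log2 ratio of Os05g0528000 differed by -0.73, long-term minus short-term, and its sign was negative on all 3 long-term arrays and positive on all 3 short-term arrays (limma adjusted p = 0.00211). At 1.66-fold the difference was under the fold threshold.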

How the results depend on the processing

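Without a fold threshold 4 of the 7 tested Rboh genes were called after long-term exposure, where 63.7% of all genes were. After short-term exposure 5 of the 7 were called, against 68.6% of all genes. In the difference between exposures 2 of the 7 were called, against 50.1% of all genes. Family genes called were 82 after long-term (61.2%, against 63.7% of all genes) and 99 after short-term exposure (73.9%, against 68.6% of all genes). With the fold threshold they were 20 after long-term (14.9%) and 38 after short-term exposure (28.4%). With the methods' t-test, 11 family genes were called after long-term exposure (8.21%, against 7.89% of all genes), 5 up and 6 down in place of 13 up and 7 down, and 11 family genes (8.27%, against 6.68% of all genes), 7 up and 4 down, and 0 Rboh genes after short-term exposure. After normexp background correction and loess, 25 family genes were called after short-term exposure, where all 21814 genes gave 2089 up and 442 down. Leaving out each array in turn gave 0 to 0 Rboh genes after long-term exposure, 1 to 2 after short-term exposure and 1 to 2 in the difference (2 without short-term replicate 2 in both), and 20 to 25 family genes after long-term and 34 to 38 after short-term exposure. Without short-term replicate 2, 2632 of all 21801 genes were called up and 1980 down after short-term exposure. In the difference 2079 of 21800 were then called higher and 2248 lower after long-term exposure. The 25 family genes came without long-term replicate 1, where 2177 of all 21828 genes were up and 1535 down. The 34 came without short-term replicate 3, where 2512 of all 21749 genes were up and 1914 down. The sign of Os01g0835500 after short-term exposure turned with normexp (0.05), array centring (0.02) and the median of the probes (0.12), and with an array left out it ranged from -0.18 to 0.01, at 0.01 without short-term replicate 1. That of Os09g0438000 after short-term exposure turned with the median of its probes (0.52), that of Os12g0541300 after short-term exposure without short-term replicate 1 (-0.20) or 3 (-0.14), with a range of -0.20 to 1.03 over the arrays left out, and that of Os01g0360200 after long-term exposure without long-term replicate 1 (-0.02). The cause was not tested. The short-term ratio of Os11g0537400 ranged from 1.95 to 2.60 over 16 alternatives, called in 15 of them, and from 2.26 to 2.66 with an array left out, called in 6 of 6.

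Of called genes over the whole array, 60% were upregulated after long-term and 58.9% after short-term exposure, against 72.5% after long-term and 82.5% after short-term exposure with normexp, and 66.8% after long-term and 69.3% after short-term exposure with each array centred on its median ratio. Normexp moved the median of all genes by 0.07 after long-term and 0.15 after short-term exposure, and centring by 0.08 after long-term and 0.13 after short-term exposure. The deviations of same-numbered arrays of the exposures correlated at r = -0.235, 0.016 and -0.175 for replicates 1, 2 and 3. Those of arrays with unlike numbers correlated at r = -0.079 to 0.222. With 3 arrays per exposure, these values cannot decide whether the numbers pair the arrays. With the replicate number as a block, 0 Rboh genes were called after long-term exposure, 1 after short-term exposure and 1 in the difference, and no call of a Rboh gene changed.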
